A study of Mus musculus with 2 samples.

Results

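The Krüppel-like factor genes examined here are Klf2, Klf3, Klf4, Klf5, Klf6, Klf7, Klf9, Klf10, Klf13 and Klf15, which were taken by name from the 21938 protein-coding genes of the GENCODE M21 annotation. Each of these 10 genes was described at its promoter and over its locus, defined as the gene body with 50 kb on either side in the mouse build mm10. The assay was DNase-seq, in which the nuclease DNase I cuts DNA that is not covered by nucleosomes, so that cuts pile up into peaks at open regulatory DNA. The tissue was whole urinary bladder of B6CASTF1/J males, first-generation hybrids of C57BL/6J and CAST/EiJ, at 14 days of age. Replicate 1 came from 1 male and replicate 2 from a pool of 3 males, and the pair forms 1 group without a second condition. A whole bladder holds urothelium, smooth muscle, stroma, vessels and blood cells, so a weak peak in few cells and a weak peak in all cells cannot be told apart.

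Krüppel-like factors are transcription factors that bind GC-rich and CACCC-type DNA through zinc fingers at their C-terminal end, a feature they share with the Sp proteins. Their N-terminal parts differ: Klf2, Klf4, Klf5, Klf6 and Klf7 are known mainly as activators that recruit acetyltransferases, Klf3 as a repressor that recruits CtBP, and Klf9, Klf10 and Klf13 as partners of the SIN3A corepressor. In epithelia, muscle and vessels they control proliferation, differentiation and responses to hormones, growth factors and flow, and Klf5 is known to be required for the urothelium to mature.

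The libraries held 139821 peaks in replicate 1 and 82225 in replicate 2, of which 73164 regions were shared, that is, had peaks of both replicates overlapping by at least 1 bp. A stricter list held 87441 and 50869 peaks. Footprints, short stretches inside open DNA that are cut less than their flanks, numbered 331596 and 200630. Markers of bladder tissue were open for 6 of 8 urothelial, 6 of 6 smooth muscle and 4 of 4 stromal genes. They were open for 2 of 6 endothelial genes and 0 of 4 immune genes, and the 4 hepatocyte genes had no promoter peak in either library. The urothelial keratin gene Krt20 and the basal-cell gene Trp63 had a promoter peak in replicate 1 alone.

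The promoter of a gene counts as open here if any window of 1 kb to either side of its annotated transcript starts was overlapped by a shared region. All 10 Klf promoters were open, where 66.1% of all protein-coding genes were. With the stricter lists the count was again 10, against 61.8% of all genes. All 10 also had an open promoter region with a footprint found in both replicates, which 62.0% of all genes had. The peak signal is the authors' density value for each peak, on a scale that the sources used here do not define, and a gene's promoter signal is that of the strongest peak in its windows. The median promoter signal over the Klf genes was 8.50, beside 4.62 over the 14500 open genes, and each of the 10 lay above that median. With windows of 500 bp Klf15 had 2.52, which is below 4.62, although that median was taken with the 1 kb windows.

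**Figure D1:**
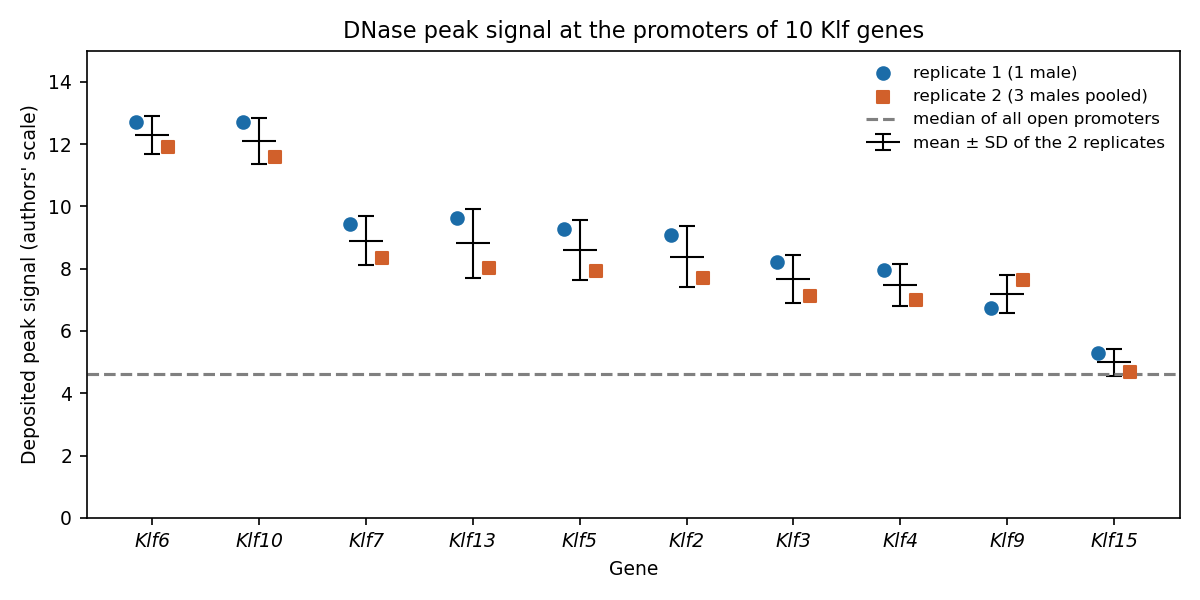
Deposited peak signal (vertical axis, authors' scale) of the strongest promoter peak of each Klf gene in replicate 1 (circles) and replicate 2 (squares), with bars for the mean and SD of both. Klf6 and Klf10 sit above 11 in both replicates, Klf15 lies closest to the dashed median of all open promoters at 4.62, and Klf9 is the only gene with the higher value in replicate 2.

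The activator Klf6, an early-response gene switched on by injury and growth signals, had the highest promoter signal of the set, at 12.7 in replicate 1 and 11.9 in replicate 2 (12.3 ± 0.60, SD, n = 2). That value exceeds those of 94.6% of open genes. The strongest region of Klf5, the factor of proliferating basal epithelium, had a signal of 9.27 and 7.93 (8.60 ± 0.95, SD, n = 2). Klf7, known from axon growth and adipocyte precursors, reached 9.45 and 8.35 (8.90 ± 0.78, SD, n = 2). The ranges of Klf5 and Klf7 overlapped each other and lay wholly below that of Klf6.

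Klf2, which endothelial cells induce under shear flow and which keeps T cells quiescent, had 9.09 and 7.69 (8.39 ± 0.99, SD, n = 2). Klf4, a factor of epithelial barrier differentiation and of smooth muscle phenotypic switching, had 7.95 and 7.0 (7.47 ± 0.68, SD, n = 2). Both ranges overlapped that of Klf5, so the 3 genes were not separated by the replicates. No peak of either library lay at the starts of the endothelial markers Pecam1, Robo4 and Emcn. Of the other endothelial markers, Kdr had 1.69 and 1.08, Tek 0.656 and 0.648, and Cdh5 a peak of 0.495 in replicate 1 alone.

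Klf3, the CtBP-recruiting repressor, had 8.22 and 7.13 (7.68 ± 0.77, SD, n = 2), and these values came from different peaks of the gene, as described further on. Among the SIN3A partners, Klf10, first described as a gene induced early by TGF-beta, had 12.7 and 11.6 (12.1 ± 0.74, SD, n = 2), and its range overlapped that of Klf6. Klf13, an activator of chemokine transcription in T cells, had 9.62 and 8.01 (8.81 ± 1.1, SD, n = 2). Klf9, a target of glucocorticoid and thyroid hormone receptors, was the 1 gene of the 10 with the lower value in replicate 1, at 6.75 and 7.63 (7.19 ± 0.62, SD, n = 2). Klf15, a glucocorticoid-induced regulator of amino acid and lipid metabolism that is also expressed in muscle, had the lowest promoter signal, 5.29 and 4.68 (4.99 ± 0.44, SD, n = 2), above 53.2% of open genes.

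In the order of the means, Klf6, Klf10, Klf7, Klf13, Klf5, Klf2, Klf3, Klf4, Klf9 and Klf15, the ranges of neighbours overlapped except at 2 steps. Klf10 exceeded Klf7 by 1.36-fold and Klf9 exceeded Klf15 by 1.44-fold, with no overlap of the replicates at either step. The highest mean was 2.47-fold the lowest. With 2 libraries this order describes these samples and carries no test.

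The promoters of these genes are rich in CpG dinucleotides. Over the 1000 bp around the annotated 5' end, the observed over expected CpG ratio ranged from 0.713 at Klf2 to 1.03 at Klf9, with a median of 0.898. The median was 0.703 over all open genes and 0.175 over genes that were not open. The median GC content was 66.7%, beside 58.3% for open genes.

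The sequences of 4 promoters are shown because their footprints cover matches to the GC-rich sites that the family itself binds. They were taken from the RefSeq promoter table (GRCm38.p6, the build mm10), which matched 8 of the 10 genes, and are given up to the base before the first exon, 5' to 3' on the gene's strand. Capitals mark bases inside footprints of both replicates. The letters are those of the C57BL/6J reference, while the mice carry 1 CAST/EiJ copy of each of these autosomes.
Klf2 promoter: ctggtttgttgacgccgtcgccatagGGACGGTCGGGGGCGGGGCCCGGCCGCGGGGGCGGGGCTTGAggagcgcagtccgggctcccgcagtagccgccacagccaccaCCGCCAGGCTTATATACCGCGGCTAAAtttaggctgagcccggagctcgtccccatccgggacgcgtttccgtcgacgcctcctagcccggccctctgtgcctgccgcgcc
Klf4 promoter: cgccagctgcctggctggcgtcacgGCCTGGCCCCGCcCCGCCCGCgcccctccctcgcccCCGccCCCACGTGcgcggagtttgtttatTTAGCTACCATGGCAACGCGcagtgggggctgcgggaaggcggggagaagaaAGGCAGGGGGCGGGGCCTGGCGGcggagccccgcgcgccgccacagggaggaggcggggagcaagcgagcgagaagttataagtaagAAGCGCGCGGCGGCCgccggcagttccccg
Klf6 promoter: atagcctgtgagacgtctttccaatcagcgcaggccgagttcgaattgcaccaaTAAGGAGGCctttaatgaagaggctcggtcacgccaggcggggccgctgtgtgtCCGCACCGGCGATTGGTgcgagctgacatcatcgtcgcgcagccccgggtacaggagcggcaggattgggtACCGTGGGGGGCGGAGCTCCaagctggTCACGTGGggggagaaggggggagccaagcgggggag
Klf13 promoter: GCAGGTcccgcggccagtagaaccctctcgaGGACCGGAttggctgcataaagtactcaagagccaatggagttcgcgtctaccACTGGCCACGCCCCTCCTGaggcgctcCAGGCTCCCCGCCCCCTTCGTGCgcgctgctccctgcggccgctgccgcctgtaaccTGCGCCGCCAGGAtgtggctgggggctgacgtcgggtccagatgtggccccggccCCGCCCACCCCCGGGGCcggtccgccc
They span chr8:72318812-72319032 (plus strand), chr4:55532467-55532725 (minus), chr13:5861239-5861481 (plus) and chr7:63938916-63939165 (minus). In the Klf2 promoter 1 block of capitals held 2 GC boxes, CCCCGCCC, each overlapping a second match to the broad Klf/Sp pattern CCNCNCCC, all read on the reverse strand and all wholly in capitals. The Klf4 promoter held 4 GC boxes, of which the one at bases 150 to 157 lay wholly in a footprint, and an E-box CACGTG whose 6 bases did too. In the Klf6 promoter the broad pattern at bases 186 to 193, an E-box at 208 to 213 and a CCAAT box at 120 to 124 lay wholly in footprints. The Klf13 promoter carried 2 GC boxes, at bases 118 to 125 and 222 to 229, with 8 and 6 bases in capitals. Not all promoters were like these 4. In the Klf15 promoter the broad matches at 8 to 15, 144 to 151 and 160 to 167, the last also a GC box, had 0 bases in footprints of both replicates. In that of Klf7 the matches at 84 to 91 and 85 to 92 had 6 and 7 such bases, and the others had 0. The Klf9 promoter held no broad match. A match is a resemblance in letters and does not show which protein was bound.

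All of the genes except Klf2 had more than 1 open start region. The windows of a Klf gene overlapped 3.5 shared regions at the median, against 2 for open genes, while the median number of annotated start sites was 3 for the Klf genes and 4 for open genes. Klf2, with 1 annotated start, had 1 such region, and Klf3 and Klf13 had 6 each. The longest stretch of bases with a cut-rate FDR of 0.05 or lower in both replicates at the promoter spanned 2910 bp at Klf13, 1966 bp at Klf3 and 1897 bp at Klf4. It spanned 689 bp at Klf15, the only gene of the set below the median of 735 bp over open genes, and 1444 bp at the median Klf gene. Footprints found in both replicates numbered 20 at the promoters of Klf13, 19 at Klf10 and 16 at Klf3. Klf2, with 3, was the only one under the median of 4 over open genes, and the median over the 10 was 9.

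**Figure D2:**
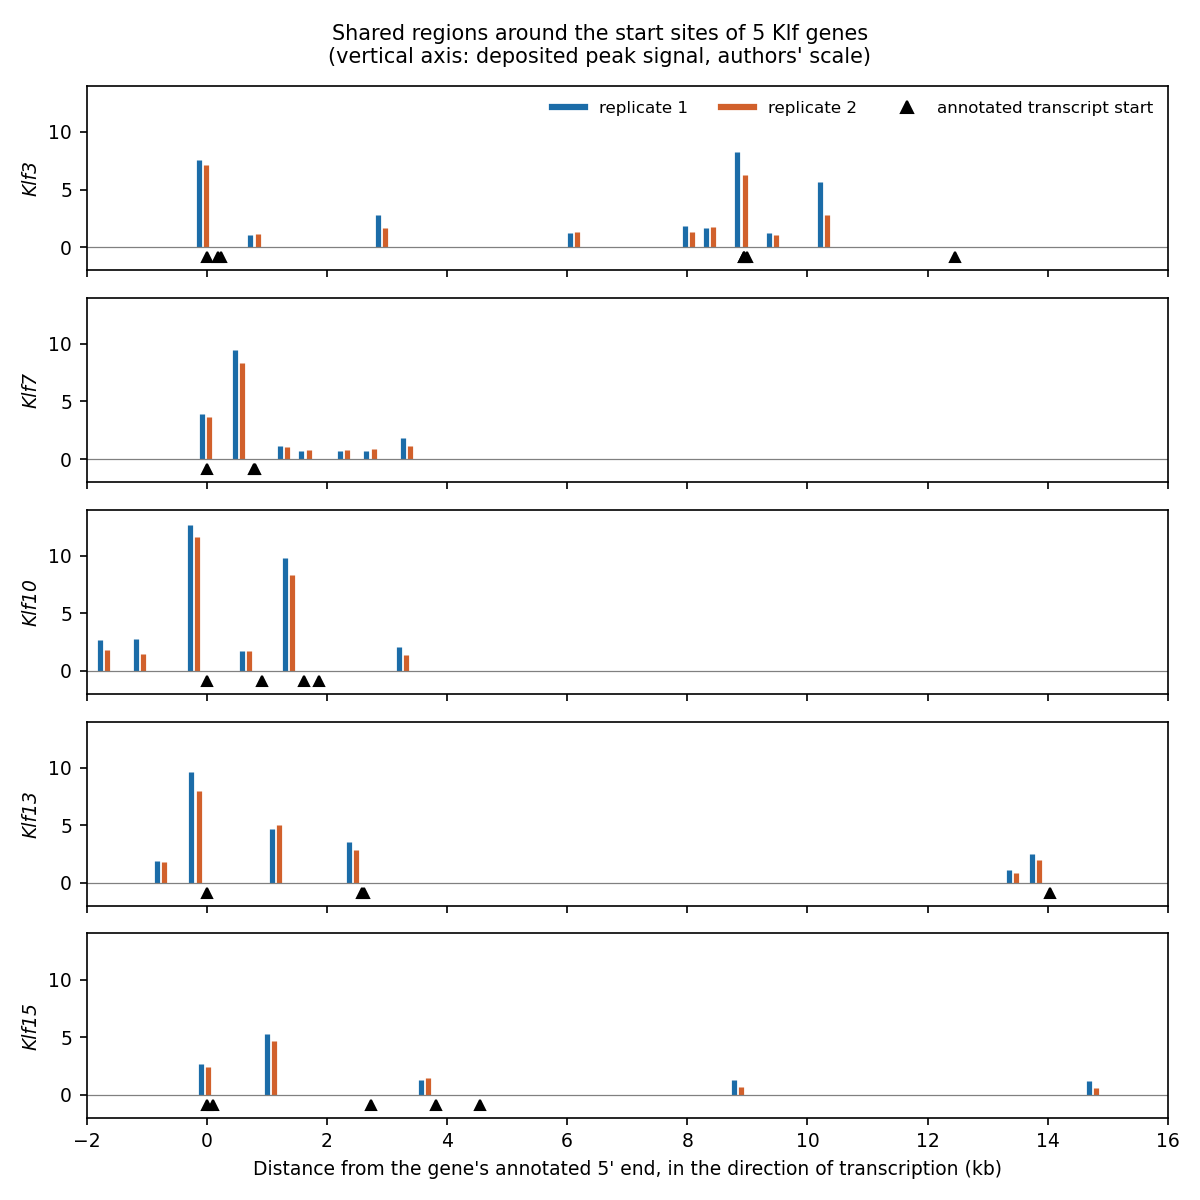
Deposited peak signal (vertical axis, authors' scale) of each shared region in replicate 1 and replicate 2 against its distance from the annotated 5' end of the gene (horizontal axis, kb), with triangles for annotated transcript starts. Klf3 has a second tall region at 8.89 kb, Klf7 and Klf15 have their tallest region downstream of the 5' end, and Klf10 has 2 tall regions.

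Klf3 had 2 promoters of like signal. The region at its 5' end (chr5:64803001-64803640) had 7.53 in replicate 1 and 7.13 in replicate 2, and it also covers starts of the non-coding genes Gm20033 and C230096K16Rik. The intronic region 8.89 kb downstream (chr5:64812181-64812380) had 8.22 and 6.23 and overlaps 2 of the 3 annotated starts found there. The ranges overlapped, and the stronger region was the intronic one in replicate 1 and the 5' one in replicate 2. The CpG ratio of the intronic region was 0.486 over its own length, beside 0.871 over the 1000 bp at the 5' end. Its sequence up to the first of those starts, plus strand, is shown because it carries the CACCC box CCACACCC on the reverse strand, at bases 30 to 37, with 2 of its bases in a footprint (capitals as above).
Klf3 intronic start region: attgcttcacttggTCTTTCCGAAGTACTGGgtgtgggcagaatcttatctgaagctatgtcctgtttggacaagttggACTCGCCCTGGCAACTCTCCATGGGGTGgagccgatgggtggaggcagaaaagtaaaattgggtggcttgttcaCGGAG
This CACCC box was found in the central 200 bp of 2 of the 36 own-promoter regions, 5.56%, against 3.02% of all promoter regions. Outside promoters the order was the other way, 2.82% beside 3.57%, and so it was over all locus regions with 100 bp windows, 1.74% beside 1.87%.

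At Klf7 the strongest region lay 531 bp downstream of the annotated 5' end, upstream of 2 protein-coding starts at 791 and 800 bp. It had 9.45 and 8.35, beside 3.92 and 3.67 for the region at the 5' end itself, with no overlap between the regions. The middle 300 bp of the downstream region, minus strand, are shown because 5 stretches of both replicates' footprints fall in them, 1 of which covers all 8 bases of a GC box at 164 to 171 and 1 of which reaches 4 bases into a MEF2-type match at 80 to 89.
Klf7 downstream start region: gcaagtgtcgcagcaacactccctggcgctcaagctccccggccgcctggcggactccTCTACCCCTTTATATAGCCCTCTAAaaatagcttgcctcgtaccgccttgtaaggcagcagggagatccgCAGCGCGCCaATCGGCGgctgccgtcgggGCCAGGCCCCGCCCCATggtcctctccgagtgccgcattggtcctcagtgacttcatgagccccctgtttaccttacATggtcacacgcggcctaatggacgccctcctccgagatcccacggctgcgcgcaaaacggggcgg
At Klf15 the strongest region also lay downstream of the 5' end, at a lower signal, but not close to a further start. This region, 1055 bp downstream, inside the gene and outside its exons, had 5.29 and 4.68. The region at the 5' end, shared with the start of the long non-coding RNA gene Gm44117, had 2.66 and 2.37. The annotated starts nearest to the downstream region were at 98 and 2728 bp. It counts as a promoter region because it overlaps the 1 kb windows of the starts at the 5' end and at 98 bp. The value of 2.52 that Klf15 had with windows of 500 bp is the mean of this 5' region. The downstream region (plus strand) is shown for its 6 footprint stretches, 1 of which covers the broad Klf/Sp match at bases 195 to 202, and for a glucocorticoid-type pattern, ACANNNTGT, at 130 to 138 that lies outside them.
Klf15 downstream region: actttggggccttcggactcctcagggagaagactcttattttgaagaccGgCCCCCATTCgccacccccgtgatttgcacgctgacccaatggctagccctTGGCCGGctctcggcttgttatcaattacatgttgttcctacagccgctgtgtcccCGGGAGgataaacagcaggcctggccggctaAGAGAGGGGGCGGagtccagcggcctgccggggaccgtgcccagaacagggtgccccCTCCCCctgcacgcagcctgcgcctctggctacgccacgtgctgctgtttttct

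Klf10 had 2 strong regions, 225 bp upstream of its 5' end with 12.7 and 11.6 and 1365 bp downstream with 9.76 and 8.35, the latter 78.0% GC over its central 200 bp and holding 12 footprints of both replicates. Klf13 had a series of weaker start regions after the main one. Those lay 1144 bp downstream with 4.64 and 4.98, 2424 bp downstream with 3.54 and 2.85, and 13.8 kb downstream with 2.48 and 1.96, the last 2 beside annotated protein-coding starts. A further intronic region of Klf13, 41.9 kb downstream at the start of the non-coding gene Gm27252, had 6.99 and 5.20. The Klf4 promoter had, beside the region at its 5' end, weaker ones 515 bp upstream with 3.95 and 3.17 and 965 bp downstream with 1.14 and 1.27. At Klf6, Klf5 and Klf9 the further start regions were weak. The strongest had 1.87 and 1.01 at Klf6, 1.52 in both replicates at Klf5, and 2.61 and 2.57 at Klf9.

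Over the 10 loci, 1257 kb in all, replicate 1 had 173 peaks and replicate 2 had 135. These gave 115 shared regions, 51 regions of replicate 1 alone and 16 of replicate 2 alone. The single-library regions were weak, with signals up to 2.26, at Klf4, in replicate 1 and up to 1.02, at Klf2, in replicate 2. Shared regions numbered 17 at Klf3, 16 at Klf15, 15 at Klf13, 13 at Klf6, 11 at Klf10, 10 at Klf7 and at Klf9, 9 at Klf4, 8 at Klf2 and 6 at Klf5. Per 100 kb of locus the density ran from 5.16 at Klf5 and 5.19 at Klf7 to 13.1 at Klf3 and 14.2 at Klf15. The median was 9.19, beside 4.91 over all protein-coding genes with the same flanks, and all 10 loci lay above that median. Medians over all genes, here and below, take in genes without an open promoter. With flanks of 10 kb the median of the Klf loci was 16.7, beside 4.95, and with 100 kb it was 7.50, beside 4.86.

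**Figure D3:**
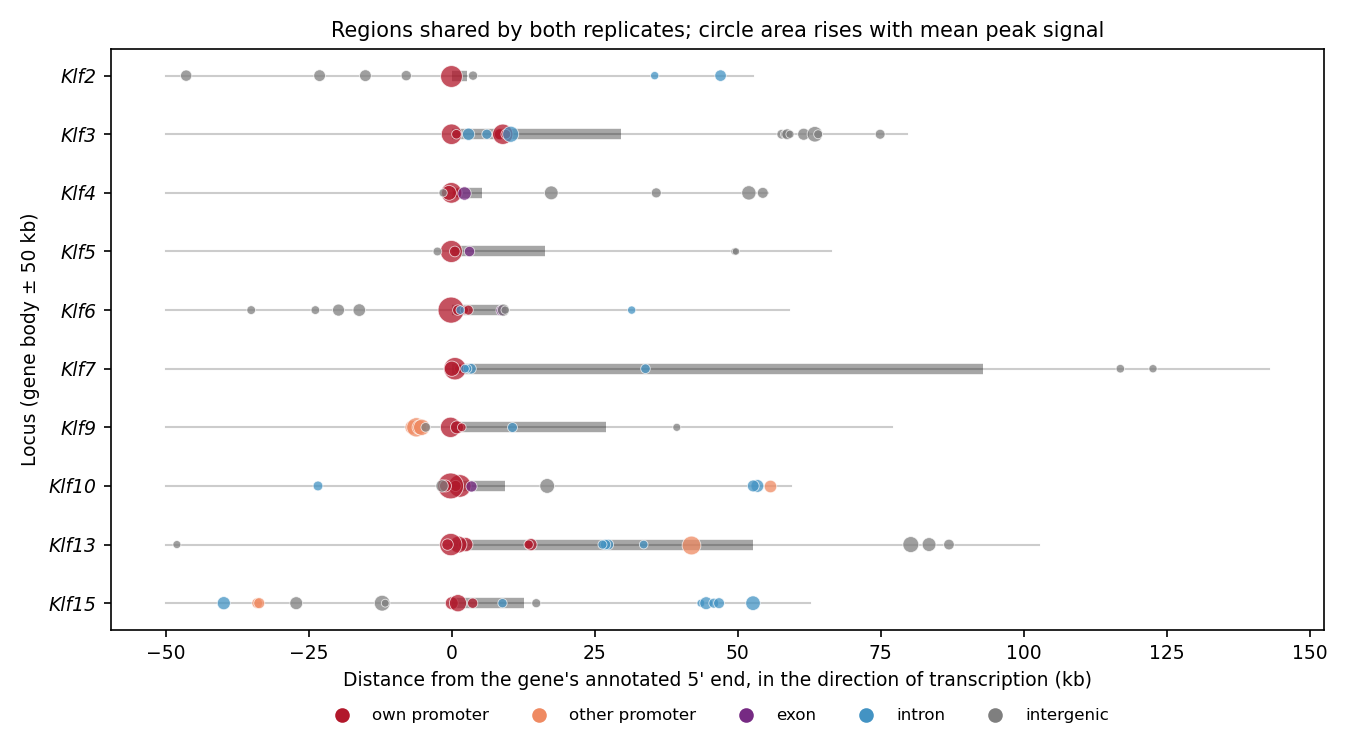
Shared regions of each locus by distance from the annotated 5' end (horizontal axis, kb, in the direction of transcription), coloured by position class, with circle area rising with the mean peak signal and grey bars for gene bodies. The largest circles sit at the gene starts, and the loci differ in where the others lie: upstream at Klf9, far downstream at Klf13 and on both sides at Klf15.

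Footprints in the loci numbered 522 in replicate 1 and 397 in replicate 2, and 247 were found in both. Shared footprints ranged from 11 at Klf5 to 37 at Klf15, with 36 at Klf3 and at Klf13 and 32 at Klf10. Per 100 kb the median was 20.6, beside 8.95 over all genes. Of the 10 loci, 9 exceeded that median, and Klf7, whose gene body is the longest of the set, did not. Of the 247, 109 lay in own-promoter regions and 109 in regions outside promoters. Bases with an FDR of 0.05 or lower covered 4.80% of the locus bases in replicate 1, 4.12% in replicate 2 and 3.80% in both. The share in both was largest at Klf4, 5.30%, and smallest at Klf5, 1.80%, and Klf7, 1.89%. Klf5 alone was below the median of 1.85% over all genes, and Klf7 was only just above it.

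**Figure D4:**
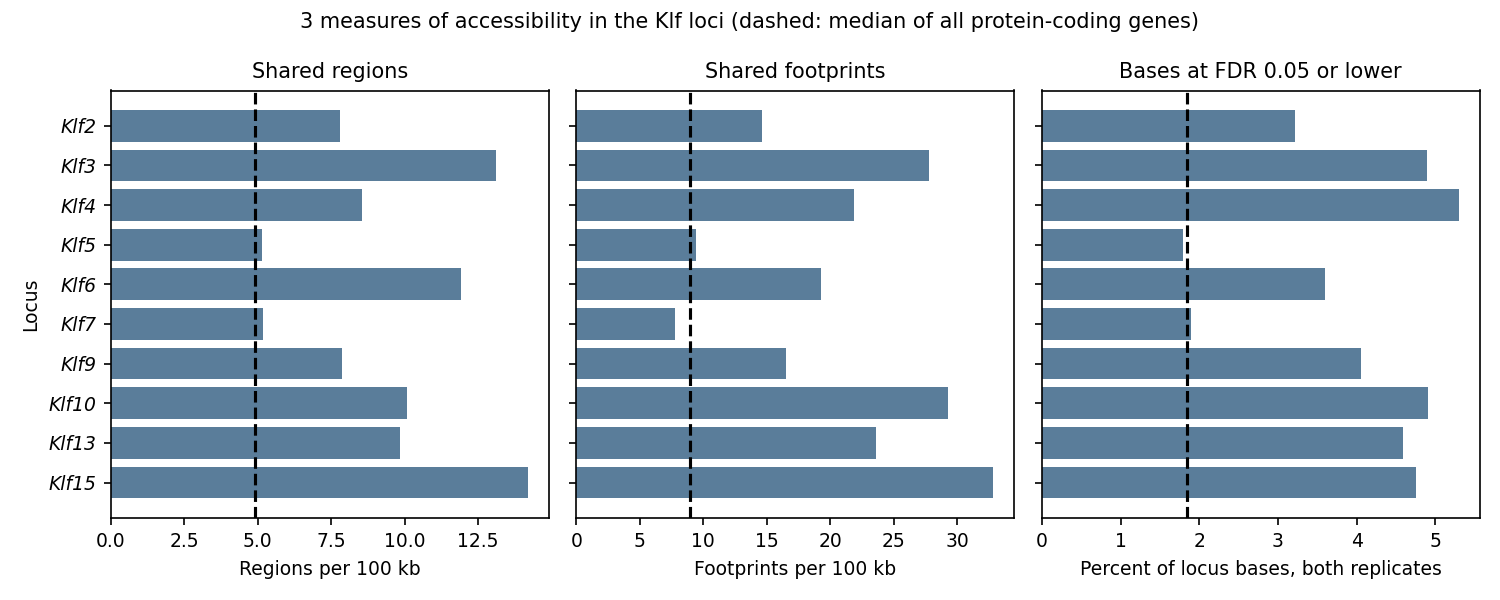
Shared regions per 100 kb, shared footprints per 100 kb and percent of bases at FDR 0.05 or lower in both replicates (horizontal axes) for each of the 10 loci, with dashed lines at the medians of all protein-coding genes, 4.91, 8.95 and 1.85. Klf5 and Klf7 are lowest on all 3 measures and lie next to the dashed lines.

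By position, 36 of the 115 shared regions overlapped start windows of the Klf gene itself, 8 those of another gene, and 71 none. Of the 71, 4 were exonic, 26 intronic and 41 intergenic. Regions at promoters made up 38.3% of the total, against 38.1% of all shared regions in the libraries. The 71 regions outside promoters had a median signal of 1.35, beside 0.942 for all such regions, and 54 of them, 76.1%, held a footprint of both replicates, beside 69.8%. Of these regions, 19 lay within 10 kb of the 5' end, 34 at 10 to 50 kb and 18 farther away. Of the 71, 18 lay inside the Klf gene itself.

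Of the 10 loci, 7 held no annotated 5' end of another protein-coding gene. The like share over all genes is not given here. At Klf15, Cfap100 had an open promoter with 1.89 and 1.40, weaker than Klf15 itself. Aldh1l1, which encodes a folate enzyme, has its 5' end in the locus and was open by the same rule, with 1.16 and 0.903. That rule takes in starts beyond the locus, and no shared region of the locus lay at an Aldh1l1 start. E030018B13Rik in the Klf13 locus had a peak of 1.54 in replicate 1 alone, and Gm10282 in the Klf2 locus was not open. Of the 8 regions at starts of another gene, 2 were at Cfap100 and 6 at non-coding genes or pseudogenes. The largest group lay 5285 to 6995 bp upstream of Klf9, at the long non-coding RNA gene 2410080I02Rik, where 4 regions stood side by side. The strongest of them had 6.40 and 6.43, beside 6.75 and 7.63 at the Klf9 promoter.

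The strongest region of each locus outside all start windows is given next, since these are the candidate distal elements, with no evidence here of the gene they act on. The highest means were those of Klf3, in its intron 10.3 kb downstream, with 5.69 and 2.83, and Klf13, 80.2 kb downstream of the start and beyond the gene's end, with 4.48 and 3.88. Klf15 followed with a region 12.2 kb upstream, at 5.65 and 2.52, and Klf10 with one 16.7 kb downstream, at 3.97 and 3.03. After each replicate was divided by its median over shared regions, the log2 ratio of replicate 1 to replicate 2 was -0.18 at the Klf13 region, inside the SD of 0.42 over all shared regions. It was 0.61 at Klf3 and 0.77 at Klf15, outside that SD.

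The Klf4 locus had one 51.9 kb downstream with 4.19 and 2.28, and Klf6 one 16.2 kb upstream with 2.95 and 1.77. Klf2 had one 15.1 kb upstream with 1.93 and 2.01. At Klf7, 3.33 kb downstream, the values were 1.83 and 1.12. The strongest region at Klf5 was exonic, 3.02 kb downstream, with 1.57 and 1.25, and that of Klf9 intronic, 10.5 kb downstream, with 1.50 and 0.919. Every one of these 10 regions was thus weaker than the promoter of its gene in both replicates, except at Klf15, where replicate 1 had 5.65 against 5.29 at the promoter.

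Sequences of 3 of these regions are shown because each carries a different known site: a CTCF core at Klf3, a cAMP response element (CRE) at Klf13 and AP-1 sites at Klf6. CTCF is the insulator and loop-anchor protein, CREs are bound by CREB and ATF proteins, and AP-1 sites by Fos and Jun. The regions are chr5:64813581-64813740 (plus strand), chr7:63858581-63858780 (minus strand, that of Klf13) and chr13:5845181-5845380 (plus strand) in mm10, with capitals again for bases in footprints of both replicates.
Klf3 intronic region: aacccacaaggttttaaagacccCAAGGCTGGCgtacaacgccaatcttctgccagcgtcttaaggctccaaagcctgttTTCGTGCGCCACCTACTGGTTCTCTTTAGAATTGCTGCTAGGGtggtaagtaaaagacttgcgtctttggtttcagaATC
Klf13 downstream region: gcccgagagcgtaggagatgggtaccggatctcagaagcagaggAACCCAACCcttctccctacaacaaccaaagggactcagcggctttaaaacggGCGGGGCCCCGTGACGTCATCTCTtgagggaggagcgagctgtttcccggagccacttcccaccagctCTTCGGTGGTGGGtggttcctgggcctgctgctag
Klf6 upstream region: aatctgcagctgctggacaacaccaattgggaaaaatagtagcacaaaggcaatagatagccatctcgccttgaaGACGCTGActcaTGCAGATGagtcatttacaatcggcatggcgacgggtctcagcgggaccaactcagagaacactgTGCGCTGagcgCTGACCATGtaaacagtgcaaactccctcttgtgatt
In the Klf3 region all 12 bases of the CTCF core, at 88 to 99, lay in 1 footprint. In the Klf13 region the CRE TGACGTCA at 109 to 116 lay wholly in a footprint, which also covered 6 of 8 bases of a GC box at 96 to 103. The CRE was found in 1.41% of the 71 regions, that is in this region alone, and in 0.417% of all regions outside promoters. Over all locus regions its share was 0.870% beside 0.976%, and in own-promoter regions 0 of 36 beside 1.88%. In the Klf6 region the AP-1 pattern TGANTCA occurred at bases 81 to 87 and 94 to 100, and footprints covered 3 and 2 bases of them.

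Motifs were counted in the central 200 bp of the shared regions, on both strands. The broad Klf/Sp pattern was in 60 of the 115 locus regions, 52.2%, beside 37.7% of all shared regions. The Wilson 95% interval of the 52.2% was 43.1 to 61.1, counting error only. It treats the regions as independent draws, although regions of the same locus share their sequence neighbourhood. The interval may therefore be too narrow, and it is no test against the share of all regions. With 100 bp windows the shares were 28.7% beside 24.3%, and over whole regions 57.4% beside 42.0%. At own-promoter regions the broad pattern was in 26 of 36, 72.2%. The share was 54.6% at all promoter regions, which include those at starts of non-coding genes. Outside promoters it was in 28 of 71, 39.4%, beside 27.4%. Within footprints it was centred in 50 of 247, 20.2%, beside 14.5% of all shared footprints. The GC box, which is contained in the broad pattern, was in 36.1% of own-promoter regions beside 21.1% of promoter regions.

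**Figure D5:**
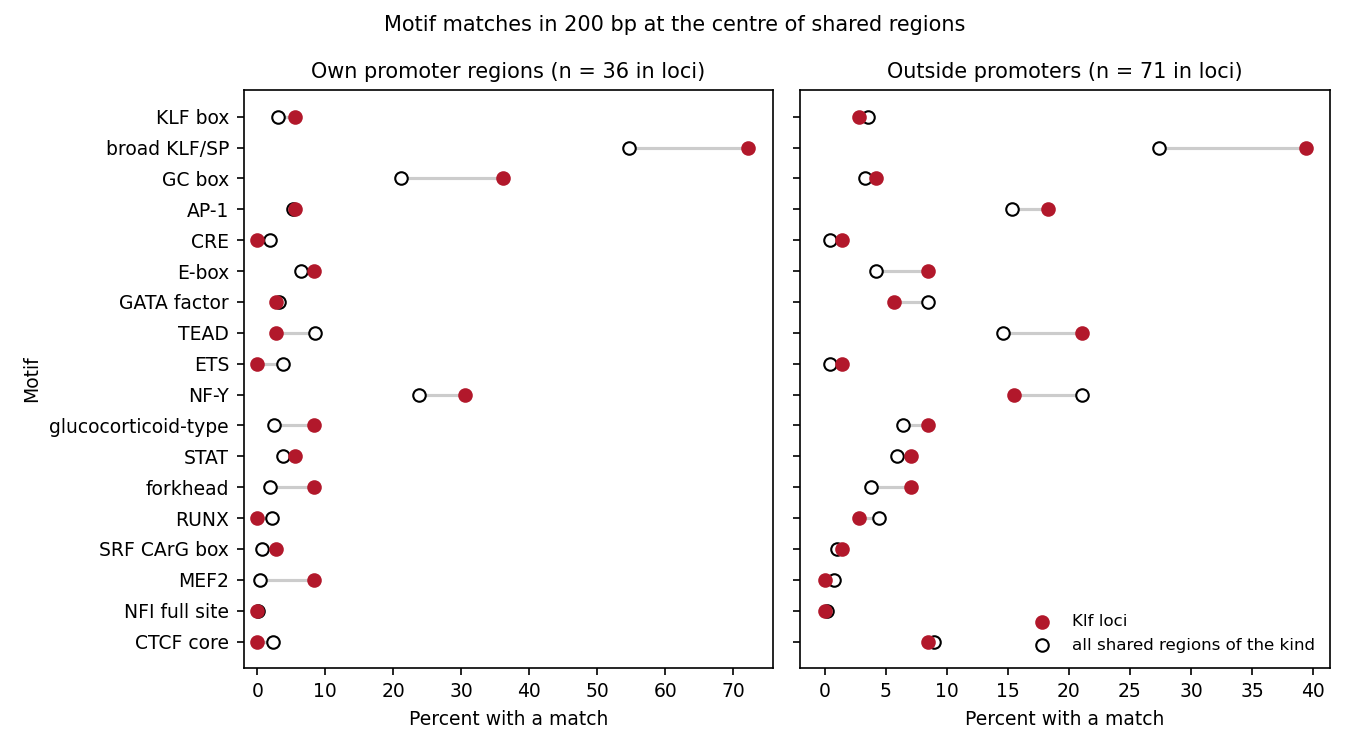
Percent of shared regions with a motif match in their central 200 bp (horizontal axis) for 18 motifs (vertical axis), in own-promoter regions of the Klf loci (left) and in their regions outside promoters (right), with open circles for all shared regions of the same kind. The broad Klf/Sp pattern has the largest share in both panels, 72.2% and 39.4%, to the right of its open circles at 54.6% and 27.4%.

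The 13 locus regions outside promoters with an AP-1 match made up 18.3%, beside 15.3% of all regions outside promoters. The TEAD pattern GGAATG, the site of the Hippo pathway's DNA-binding partners, was in 15 of 71, 21.1%, beside 14.6%. The strongest distal region of Klf15 held 1 such match, with 5 of its 6 bases in a footprint. The match lay at the edge of that footprint, which was 32 bp wide in replicate 1, so most of the footprint lay outside it. The E-box was in 9.57% of locus regions beside 5.05%, the glucocorticoid-type pattern in 8.70% beside 4.94%, and the forkhead pattern TGTTTAC in 6.96% beside 3.05%, the last resting on 8 regions. The CTCF core was in 5.22% beside 6.41%. The CCAAT box of NF-Y was in 20.9% beside 22.2%, an order that turned to 14.8% beside 12.8% in 100 bp windows and 26.1% beside 24.8% over whole regions. The full NFI site was in 0 of 115 locus regions, beside 0.135% of all shared regions, and the ETS pattern CCGGAAGT in 1 of 115, 0.870% beside 1.68%. Regions of 1 locus share their sequence neighbourhood and their GC content, which also differs between the loci and all regions, and its part in these shares was not tested.

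The 2 libraries were compared as log2(replicate 1 / replicate 2) of the promoter signal, each first divided by its median over all shared regions. The median over the 10 Klf promoters was -0.21, beside -0.14 over all open promoters, whose SD was 0.30. The values ran from -0.57 at Klf9 to -0.13 at Klf13, all below 0. Of all promoter regions in the libraries, 30.0% lay above 0. The value of Klf3, -0.19, sets different peaks against each other, and its 5' and intronic regions taken singly gave -0.31 and 0.01. Before that scaling 9 of the 10 were higher in replicate 1. The promoter regions of the loci, own and other, had a median of -0.21 and those outside promoters of 0.00, beside -0.17 and -0.03 in all. The 6 locus regions with a CTCF core, at Klf3, Klf10, Klf13 and Klf15, had a median of 0.47 and were above 0 in 6 of 6, from 0.15 to 0.84. Over all 4046 regions outside promoters with this core the median was 0.20 and 69.5% were above 0.

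Genes of the same protein family that were not among the 10 showed a wider range. Of 7 other Klf genes 5 were open, 71.4%, and of 9 Sp genes 8, 88.9%, beside 66.1% of all protein-coding genes. The highest were Sp4 with 16.4 and 12.4 (14.4 ± 2.8, SD, n = 2), Klf16 with 13.0 and 11.7 (12.4 ± 0.90, SD, n = 2), Klf11 with 11.7 in both replicates and Sp2 with 11.0 and 10.7. Klf1, the erythroid factor, Klf17 and Sp7, the osteoblast factor, had no promoter peak in either library. The median over the 13 open ones was 1.70, with Klf12, Klf14, Klf8, Sp5, Sp6, Sp8 and Sp9 all at 1.70 or lower, so the lowest of the 10 described here, Klf15, lay above those 7.

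Genes for cofactors and other proteins that act with or on Klf factors were open in 14 of 14 cases, beside 66.1% of all protein-coding genes. Their median signal was 8.04, beside 4.62 over all open genes. The highest were the ubiquitin ligase genes Fbxw7 (18.4 and 13.7) and Wwp1 (13.5 and 11.5), both known to target Klf5 for degradation, followed by the corepressor gene Sin3a (12.7 and 9.59) and the deacetylase gene Hdac1 (10.8 and 9.30). Of the CtBP genes, partners of Klf3, Ctbp1 had 6.30 and 5.40 and Ctbp2 4.65 and 4.71. The acetyltransferase genes Ep300 and Crebbp had 9.18 and 8.73, and 5.03 and 4.36. Kat2b, also for an acetyltransferase, had the lowest signal of the 14, 1.77 and 1.75.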

How the data were processed

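Each library came with 2 peak lists, a footprint list and an FDR track, made from that library alone on build mm10, per the notes deposited with each sample. Aligner, callers, depth and signal scaling were not given in the sources used here, so no counting interval is given for a signal. The deposited peak signal is the authors' density per peak. The deposited FDR track gives the authors' q-value (p-value adjusted as an FDR) for stretches at 0.05 or lower. The deposited footprint score was 0.01 throughout, so footprints served as positions.

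Peaks of both replicates that overlapped by at least 1 bp were joined into shared regions and placed in a locus by their centre, with GENCODE M21 (GRCm38.p6). Signals were compared on the log2 scale without a pseudocount. Motifs were 18 consensus patterns. Of these, the SRF, MEF2, NFI and CTCF sites are longer than 9 letters or hold alternatives and are given by name. No test was made, since 1 group of 2 libraries allows none. The members, gene lists and motifs were chosen with earlier results of these data known. The named genes were the 10 members, each with its promoter signal, its shared regions and the strongest region of its locus outside all start windows. For other measures only the members at the ends of the range are named. Up to 4 open genes of the highest signal and up to 6 without a peak were named from the other family genes and the cofactors. Neighbours were named where they share a promoter region of a member. Other neighbours, regions, family genes and cofactors named in the text were chosen after their values were seen. Alternatives were the stricter list, equal numbers of peaks, a 50% overlap, other windows, flanks and FDR levels, and each replicate alone. The scripts used Python 3.11.15, numpy 2.4.6, pandas 2.3.3 and matplotlib 3.10.9 and were tested on simulated data.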

Additional observations from a re-analysis of the deposited data

How the results depend on the processing

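The counts of open promoters, 10 of the Klf genes, 13 of the other family genes and 14 of the cofactor genes, stayed within 1.5 times under every alternative run. The median Klf promoter signal was 8.50 with the stricter list, with annotated gene starts alone and with the other windows. In replicates 1 and 2 alone it was 9.18 and 7.81. The SD of the replicates cannot judge these single-replicate values, since it is computed from them. The log2 ratio of the Klf promoters was 0.18 with the deposited values unscaled, the opposite sign, and -0.08 when scaled by the open promoters. With flanks of 10 kb the loci held 69 shared regions, 7.59% of their bases at FDR 0.05 and 59.4% of regions at promoters, and with flanks of 100 kb 2.66% of bases. The bases came to 3.23% at FDR 0.01 and 2.64% at FDR 0.001. The share at promoters was 27.8% with windows of 500 bp and 53.0% with 2500 bp. The broad Klf/Sp pattern was in 28.7% of regions with 100 bp windows (24.3% of all) and in 39.4% outside promoters. With each replicate alone the loci held 135 to 173 regions, 397 to 522 footprints, 4.12 to 4.80% of bases and 32.4 to 39.3% of regions at promoters. The regions of single loci stayed within 1.5 times in 43 of 50 cases, and Klf5 had 3 with the stricter list. Above the all-gene median density lay 10 loci with flanks of 10 kb, 8 with flanks of 100 kb, 9 with the stricter list or equal numbers of peaks, and 8 with either replicate alone. The cause of these shifts was not tested. No paired analysis was possible because the design holds 1 group.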

Other observations

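The Klf3 locus held a second group of regions beyond the end of the gene, in 6 regions from 57.7 to 63.5 kb downstream of its start and 2 farther on. The strongest, 63.5 kb downstream, had 5.40 in replicate 1 and 2.41 in replicate 2 and carried a CTCF core, as did the intronic Klf3 region described above. A neighbour 61.5 kb downstream had 2.35 and 1.78 and held the CACCC box. In the Klf15 locus 5 regions lay 43.5 to 52.6 kb downstream of the start, in introns of Aldh1l1. Their strongest member had 4.03 and 2.77 and carried a CTCF core. The Klf4 locus held a region 17.4 kb downstream of its start with 2.84 and 3.09 in 67.5% GC sequence. After scaling, its log2 ratio of replicate 1 to replicate 2 was -0.52, beside 0.49 at the stronger region 51.9 kb downstream. The MEF2-type match was in 3 own-promoter regions, those of Klf2, Klf6 and Klf7, 8.33% of 36, beside 0.424% of all promoter regions, and in 0 of the 71 regions outside promoters, beside 0.766%. It is 1 of 18 motifs counted, and the share rests on these 3 regions. In 100 bp windows it was in 0.870% of all locus regions, beside 0.234%. It was centred in 1 of the 247 shared footprints of the loci.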
